A study of Homo sapiens and Mus musculus with 13 samples.

Results

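The transcripts described here encode 7 proteases of mast cell and basophil granules, Tpsb2, Tpsab1, Cpa3, Mcpt8, Cma1, Mcpt4 and Gzmb, out of 37991 mouse genes measured. They were chosen by symbol, with the difference between knock-in and parental cells already known, so that difference is described below without a test. RNA sequencing was done in mouse haematopoietic progenitors immortalized by HOXB8 and kept in RPMI medium with 1% stem cell factor conditioned medium and 1 uM beta-estradiol, which all 5 mouse libraries share. In 3 libraries the cells are single-cell clones with a CRISPR/Cas9 knock-in of NPM1c (named NPM1ca-GFP in the series design), titled clone 12, clone 18 and clone 4. Mutant nucleophosmin of this kind leaves the nucleolus for the cytoplasm. The other 2 libraries are replicates of the parental line, labelled wild-type. No drug was given. All knock-in libraries are single-cell clones and the parental libraries are not labelled as such, so knock-in and cloning cannot be told apart. The labels do not say whether the parental replicates came from separate cultures. If they did not, the spread between them is technical. The 8 human libraries of the series were not used here.

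Clones are named by their sample titles. The value columns of the same records carry other clone numbers: the library titled clone 12 is headed NPM1c-4, clone 18 is headed NPM1c-12, and clone 4 is headed NPM1c-18. All 3 names stay within the knock-in group, so the group comparison does not depend on which is right, but the number of each single clone does.

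Mast cells and basophils store proteases, fully active, in granules. Serine proteases fall into tryptases, which cut after basic residues, chymases, which cut after aromatic residues, and granzymes. Carboxypeptidase A3 is a zinc enzyme that removes residues from the end of a peptide. They are packed with serglycin, whose sugar chains, which in mast cells include heparin, hold them by charge. An aminopeptidase, cathepsin C, removes a short activation peptide from chymases and granzymes on the way.

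The values are normalized read counts, that is, reads per gene divided by a size factor for each library. A single read was worth 1.231 in clone 12, 1.585 in clone 18, 2.051 in clone 4, 1.554 in parental replicate 1 and 0.1527 in parental replicate 2, whose depth of 99557475 reads stood apart from the other libraries (7358340 to 12235174 reads). Npm1, the targeted gene, was at 14144 to 15141 in the clones, against 25695 and 25714 in the parental libraries. The progenitor markers Kit and Cd34 were present in all 5 libraries (Kit 5263 to 8571, Cd34 14739 to 17793), as was Mpo, a granulocyte progenitor enzyme (7872 to 42873). A level is not compared between genes, because gene lengths were not used here. In bulk RNA, more cells with a transcript and more transcript per cell cannot be told apart.

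Tpsb2, which encodes the mast cell tryptase mMCP-6, was read in every clone and in neither parental library. Its normalized read count was 213.0 in clone 12 (173 reads, 95% counting interval 182 to 247), 361.4 in clone 18 (228 reads, 316 to 411) and 75.91 in clone 4 (37 reads, 53.4 to 105). With 0 of 109285735 reads, the parental libraries allow a value of up to 0.417 at 3 reads over the group. Against that floor, Tpsb2 was at least 511-fold higher in clone 12, at least 867-fold higher in clone 18 and at least 182-fold higher in clone 4. Parental replicate 1 alone, which is as shallow as the clones, supports smaller bounds of 45.7, 77.5 and 16.3. The clones differed among themselves as well, with clone 18 at 4.76 times clone 4 (counting interval 3.35 to 6.93). Of the 13132 genes with a mean of at least 10, 2.73% had clones spread as widely or more. The fold bounds take each clone value without its counting interval, so they are not lower limits of the true fold. Counting intervals and floors cover counting error only.

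Tpsab1 encodes the other mouse mast cell tryptase of this pair, mMCP-7. It had 3 reads in clone 4 (6.154, counting interval 1.27 to 18), 6 reads in parental replicate 2 (0.916, 0.336 to 1.99) and none in clone 12, clone 18 or parental replicate 1. From pooled reads and depth, which weight the deep parental replicate 2 most, the clones together stood at 1.86 times the parental libraries. The counting interval of 0.301 to 8.72 holds both a fall and a rise. The ratio of the group means was 4.48. Clone 4 alone, with its 3 reads, stood at 7.38 times the pooled parental libraries (1.19 to 34.6). Clones 12 and 18 had no read, which allows 3.693 and 4.755 at 3 reads. In clone 4, Tpsab1 made up 7.5% of the summed value of both tryptases. This share rests on 3 reads and takes no account of gene length, so it is no measure of their relative level. The genes are close paralogs, so reads could be assigned between them.

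Cpa3 encodes the carboxypeptidase of mast cells and basophils, which is also made early in their progenitors. It was at 2748 in clone 12, 3139 in clone 18 and 4388 in clone 4, and at 2450 and 386.2 in parental replicates 1 and 2. All 3 clones lay above both parental libraries, but clone 12 was only 1.12 times parental replicate 1, clone 18 was 1.28 times and clone 4 was 1.79 times. Against parental replicate 2 the same clones were 7.11, 8.13 and 11.4 times higher. The gap between the parental replicates, 6.34-fold, was thus wider than that between any clone and parental replicate 1. Only 17 of 13132 tested genes (0.129%) had parental replicate 1 at least this far above parental replicate 2, and 7.81% had it more than 1.5 times above. The mean log2 difference of 1.79 was 3.12 without parental replicate 1 and 0.45 without parental replicate 2.

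Mcpt8 encodes mMCP-8, a serine protease that in the mouse marks basophils and is related in sequence to granzymes. Its normalized read count was 606.9, 719.6 and 562.1 in clones 12, 18 and 4, with 274 to 493 reads each. The parental libraries had 237.7 (153 reads) and 118.8 (778 reads). Every clone was higher than every parental library, by 2.36 to 3.03 times against parental replicate 1 and by 4.73 to 6.06 times against parental replicate 2. The clones stayed within 1.28-fold of each other, while the parental replicates differed 2-fold, a gap reached by 2.92% of tested genes. The difference on the log2(value + 1) scale was 1.89.

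**Figure D1:**
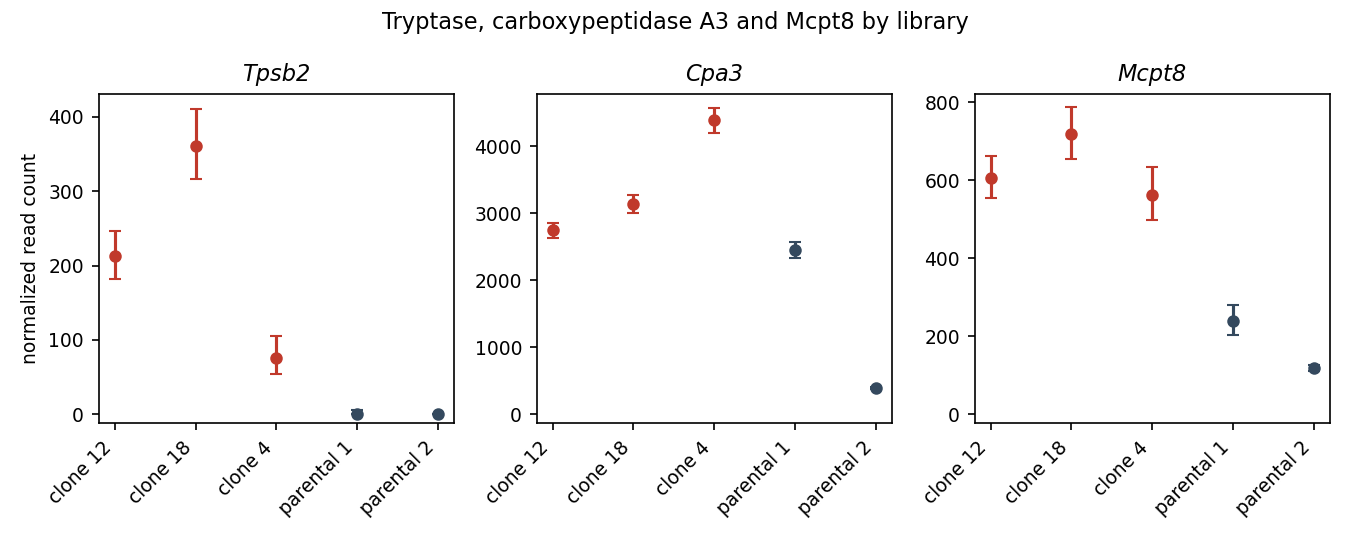
Normalized read count (vertical axis, linear, a separate scale in each panel) of Tpsb2, Cpa3 and Mcpt8 in the 3 knock-in clones (red) and 2 parental replicates (dark); points are libraries and bars are 95% Poisson intervals of the reads. Tpsb2 is at 0 in both parental libraries, Cpa3 is low in parental replicate 2 (386.2) but not in parental replicate 1 (2450), and Mcpt8 is above 562 in every clone and below 238 in both parental libraries.

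The chymases were barely read. Cma1, which encodes mMCP-5, an early mast cell chymase with elastase-like specificity in the mouse, had 4 reads in clone 12 (4.924, counting interval 1.34 to 12.6), 12 reads in clone 18 (19.02, 9.83 to 33.2) and none in clone 4 or the parental libraries. Against 3 parental reads over the group, the clone 12 value was at least 11.8-fold higher and the clone 18 value at least 45.6-fold higher. The counting error of the clones is not in these bounds. These bounds rest on the deep parental replicate 2, since against parental replicate 1 alone they were 1.06 and 4.08. The low end of the clone 12 interval (1.34) lay below 4.661, the worth of 3 reads in parental replicate 1. Clone 4 overlapped the parental libraries at 0, with up to 6.154 allowed by 3 reads.

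Mcpt4 encodes mMCP-4, the chymase of mature connective tissue mast cells. It had a single read, in clone 18 (1.585, counting interval 0.0401 to 8.83). Gzmb encodes granzyme B, which cuts after aspartate and is made by cytotoxic lymphocytes and by some mast cells. It also had a single read, in clone 4 (2.051, 0.0519 to 11.4). Both genes were within the counting limit of 0 in all 5 libraries, and no fold is given.

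**Figure D2:**
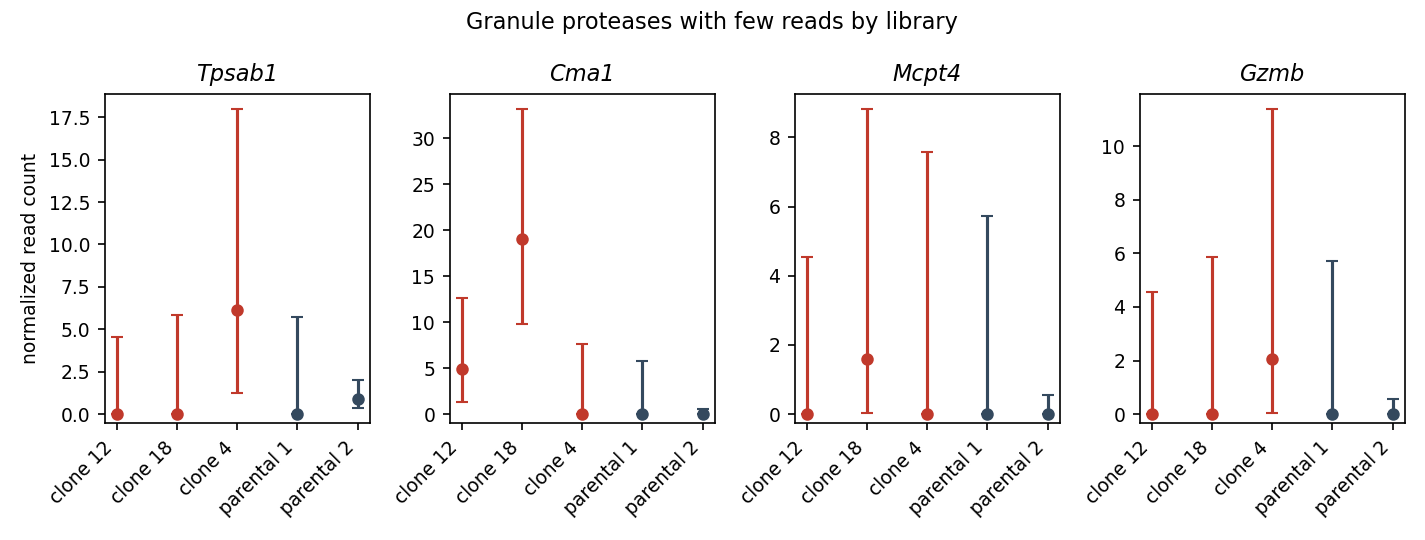
Normalized read count (vertical axis, linear, a separate scale in each panel) of Tpsab1, Cma1, Mcpt4 and Gzmb in the same 5 libraries; bars are 95% Poisson intervals. Cma1 in clone 18 (19.02) is the single point whose interval lies above the parental ones, and the interval at 0 is narrow in parental replicate 2, which is the deepest library.

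Of the 7 proteases, 3 reached the mean of 10 set for testing (Tpsb2, Cpa3 and Mcpt8) and 4 did not. In all 3, every clone was above both parental libraries, as it was in 24.5% of all tested genes. Tpsb2 reached the mean of 10 only through the clones. The genes were also picked with this contrast in view, so nothing is read from the count. The clones did not rank alike across the proteases. Tpsb2, Mcpt8 and Cma1 were highest in clone 18 and lowest in clone 4, an order shared by 21.3% of tested genes. For Mcpt8 and Cma1 the place of clone 12 was not resolved. Its counting interval overlapped those of clones 4 and 18 (Mcpt8 555 to 663, 498 to 633 and 655 to 789 in clones 12, 4 and 18). Cpa3 had its highest value in clone 4 and its lowest in clone 12, the order of 16.7% of genes.

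Proteases of the same gene families that are not among the 7 were taken from lists, as were the companion and marker genes below. These lists were drawn up with earlier results of these data known, so their calls are not an independent test. In the tryptase family, 2 of 10 genes were abundant enough to test and both were higher in the clones (limma, Benjamini-Hochberg adjusted p under 0.05 over all tested genes, by which 7.51% of all tested genes were higher and 8.49% lower). Prss34 encodes mMCP-11, a tryptase-like protease of basophils. It was at 1032, 1273 and 783.7 in clones 12, 18 and 4, against 37.29 and 45.49 in the parental libraries, 23.95-fold higher on the log2(value + 1) scale (log2 4.58, SE 0.225, adjusted p = 8.52e-05, limma). Every clone was thus far above both parental replicates, which lay close together. Tpsg1 encodes a tryptase that stays anchored in the membrane. It was at 326.2, 396.3 and 28.72 in the clones with no parental read. These values are at least 782-fold, 950-fold and 68.9-fold higher against 3 parental reads over the group, without the counting error of the clones. Against parental replicate 1 alone the bounds were 70.0, 85.0 and 6.16. Tpsg1 reached the mean of 10 only through the clones, so it could not have been called lower. Its call (adjusted p = 0.0135, limma) was lost with a pseudocount of 5 (0.053), with edgeR on whole reads (0.108) and without parental replicate 1 (0.0704) or 2 (0.0952). The other 8 stayed below 4 in every library, and 4 of them (Prss29, Prss33, Prss41 and Prss21) were at 0 throughout.

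Among 11 further genes of the chymase and granzyme cluster, 6 had no read in any library (Mcpt9, Cma2, Gzmc, Gzmd, Gzmf and Gzmg), and Mcpt1, Mcpt2, Gzme and Gzmn had at most 4 reads in a library. Only Ctsg, the cathepsin G of neutrophil and mast cell granules, could be tested. It was at 1422, 1714 and 1943 in clones 12, 18 and 4, against 1866 and 260.3 in the parental libraries, and it did not pass (log2 1.27, SE 0.861, adjusted p = 0.382, limma). Its parental replicate 1 lay among the clones. Like Cpa3, it was far lower in parental replicate 2 (7.17-fold), and without parental replicate 1 it passed (adjusted p = 0.000942, limma). The ratio of Ctsg to Cpa3 varied little by comparison, but it was lower in every clone than in either parental library. It was 0.517, 0.546 and 0.443 in clones 12, 18 and 4, and 0.762 and 0.674 in parental replicates 1 and 2.

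**Figure D3:**
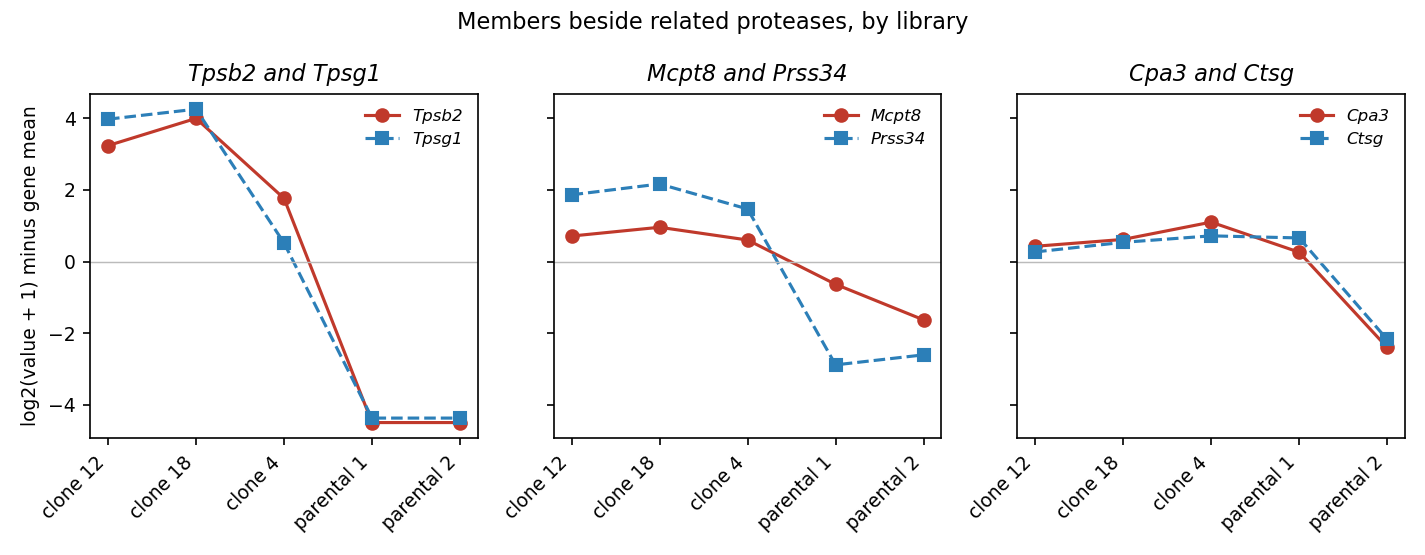
log2(value + 1) of 6 genes, each minus its own mean over the 5 libraries (vertical axis), by library (horizontal axis); red circles are Tpsb2, Mcpt8 and Cpa3, and blue squares are Tpsg1, Prss34 and Ctsg. Tpsg1 follows Tpsb2 with its lowest clone value in clone 4, Prss34 separates clones from parental libraries more widely than Mcpt8 does, and Cpa3 and Ctsg both drop in parental replicate 2 alone.

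The genes of nearest profile were found from the root mean square difference of centred log2(value + 1) profiles over the 5 libraries, as a description. For Tpsb2 they were Tpsg1 (0.663), Chn2, a Rac GTPase-activating protein (0.768), and Abca8b, a lipid transporter (0.821). All 3 had at most 1 in both parental libraries. For Mcpt8 they were Icam4, an adhesion molecule of red cells (0.148), 4931406G06Rik (0.211) and Tmem8 (0.215). Icam4 was at 27.08 to 36.46 in the clones and 6.565 to 12.43 in the parental cells. For Cpa3 the nearest were 3 genes without a symbol in the files, among them ENSMUSG00000064363 (0.142) and ENSMUSG00000064341 (0.144), and 6 of the 10 nearest had none. ENSMUSG00000064363 was at 2222, 2639 and 3555 in clones 12, 18 and 4, against 2506 and 376.5 in parental replicates 1 and 2. The nearest with a symbol, looked up after the values were seen, were the ribosomal protein genes Rpl32 (0.164) and Rpl8 (0.191) and the lectin gene Lgals1 (0.192). Rpl32 was at 811.3, 985.9 and 1159 in clones 12, 18 and 4, against 910.5 and 126.7 in the parental replicates. These genes were chosen by likeness to the Cpa3 profile, so their low value in parental replicate 2 follows from the choice. A low parental replicate 2 was not general to ribosomal protein genes. Of these, 7 of 75 had parental replicate 2 more than 1.5 times below parental replicate 1 (9.33%, against 7.81% of all tested genes). What sets parental replicate 2 apart in the genes nearest to Cpa3, and its part in the Cpa3 values, was not tested.

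Of 3 tested granule serine proteases encoded elsewhere, 2 were lower in the clones, beside 8.49% of all tested genes. Prss57 did not pass (log2 0.12, SE 0.264, adjusted p = 0.799, limma). Elane, neutrophil elastase, was at 13.54, 44.38 and 16.41 in clones 12, 18 and 4, against 188.0 and 93.43 in the parental libraries (log2 -2.57, SE 0.552, adjusted p = 0.024, limma). Prtn3, proteinase 3, was at 3632, 5603 and 3410 against 8393 and 7774 (log2 -0.97, SE 0.218, adjusted p = 0.0328, limma). Both calls were lost without clone 12 (0.0791 and 0.103), without clone 4 (0.113 and 0.0975), without parental replicate 1 (0.0979 for each) and with no filter on low values (0.0638 for each), and that of Prtn3 also without parental replicate 2 (0.0955). Of 13 listed carboxypeptidases other than Cpa3, Agbl5 and Cpd were tested and did not pass (adjusted p = 0.298 and 0.341, limma). Cpa1, Cpa4, Cpa5 and Cpb2 had no read.

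Among genes that process and store granule proteases, 5 of 17 were higher in the clones, none was lower and 12 did not pass (16% of all tested genes were called in either direction). The list's median log2 fold change was 0.36, beside 0.01 for all tested genes. Ndst2, the sulfotransferase that mast cells need to make heparin, was at 1090, 1230 and 1217 in clones 12, 18 and 4, against 169.3 and 159.1 in the parental libraries, 7.133-fold higher (log2 2.83, SE 0.132, adjusted p = 6.54e-05, limma). Its paralog Ndst1 did not pass (log2 0.36, SE 0.114, adjusted p = 0.0733, limma). Ctsd, a lysosomal aspartic protease, rose from 14620 ± 171 (SD, n = 2) to 33054 ± 907 (SD, n = 3), with the granule membrane protein Cd63 2.178-fold higher (adjusted p = 0.000112 and 0.00124, limma). Slc18a2, which loads amines into granules, was at 4040, 2826 and 5006 in the clones against 1060 and 1072 (adjusted p = 0.00462, limma). Srgn, the serglycin core protein, named after its values were seen, was at 19286, 17192 and 27471 against 11715 and 11288 (log2 0.86, adjusted p = 0.0367, limma). The Srgn call was lost without clone 12 (0.0868), without parental replicate 1 (0.0861) or 2 (0.127) and with no filter (0.0657). Ctsc, cathepsin C, did not pass, at 1453, 1574 and 1969 in the clones and 1639 in each parental library (log2 0.01, SE 0.139, adjusted p = 0.966, limma).

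**Figure D4:**
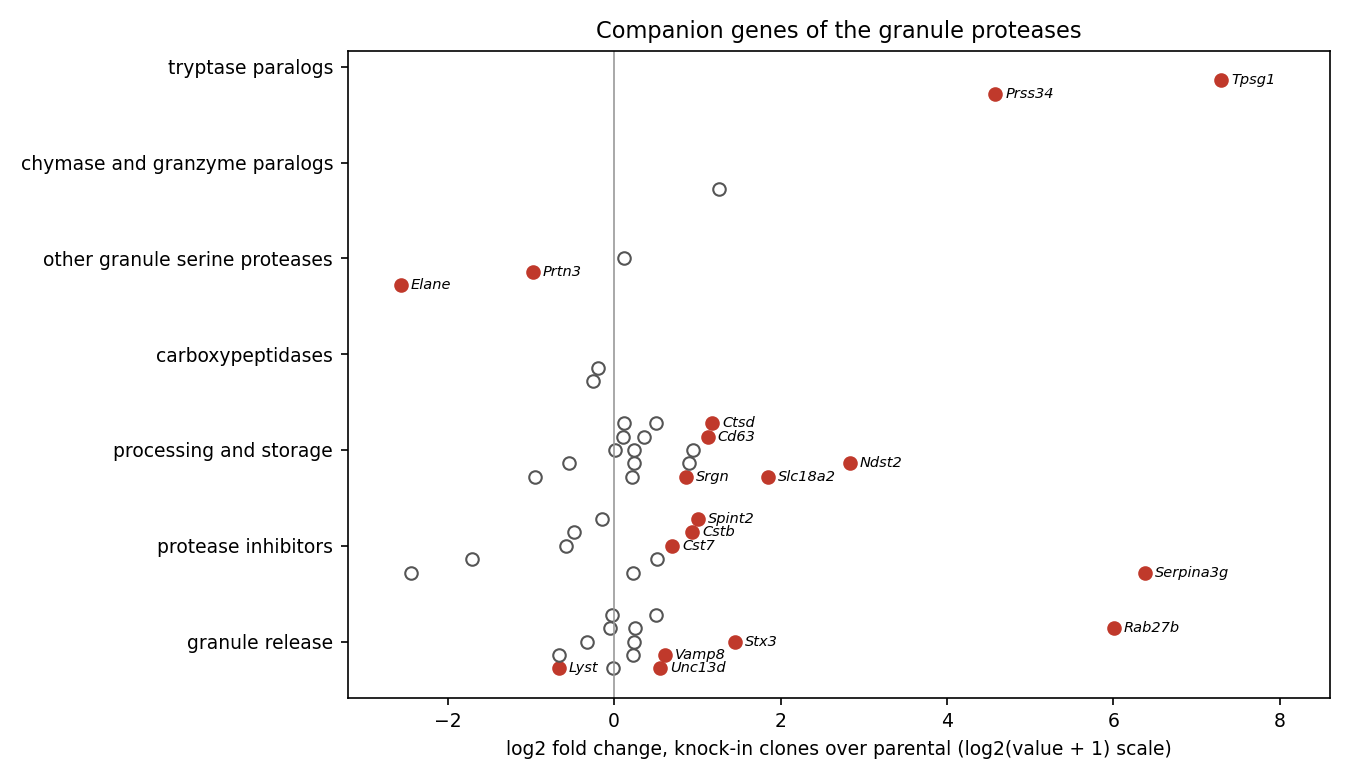
log2 fold change of knock-in clones over parental libraries (horizontal axis, log2(value + 1) scale) for each tested gene of 7 companion lists (vertical axis; the offset within a list only separates points). Filled points passed an adjusted p of 0.05 (limma) and are named, open points did not; Tpsg1, Serpina3g and Rab27b lie farthest to the right and Elane is the lowest of the called genes.

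Protease inhibitors were higher in 4 of 11 tested genes and lower in none, with 7 not passing (median log2 fold change 0.22). The shares over all tested genes were 7.51% higher and 8.49% lower. Spint2, a Kunitz inhibitor of serine proteases, was at 4092, 3773 and 4101 in clones 12, 18 and 4, against 1911 and 2053 in the parental cells (log2 1.01, SE 0.0903, adjusted p = 0.000791, limma). Serpina3g, a serpin of haematopoietic cells, was at 184.7, 31.70 and 94.37 with no parental read, at least 443-fold, 76-fold and 226-fold higher against 3 parental reads over the group (adjusted p = 0.00175, limma). Against parental replicate 1 alone these bounds were 39.6, 6.8 and 20.2. Serpina3g reached the mean set for testing only through the clones, so it could not have been called lower. The cystatin genes Cst7 and Cstb were 1.623-fold and 1.919-fold higher (adjusted p = 0.0443 and 0.0464, limma), which did not hold without clone 12 (0.0902 and 0.109) or parental replicate 2 (0.185 and 0.219). Cst7 also failed without parental replicate 1 (0.0544) and Cstb without clone 18 (0.0814) or clone 4 (0.0817), and both failed with no filter (0.101 and 0.107). Lxn, latexin, an inhibitor of A-type carboxypeptidases, was at 348.4, 223.5 and 342.6 in the clones and 484.8 and 408.8 in the parental libraries and did not pass (adjusted p = 0.128, limma). Slpi, another listed inhibitor, was at 286.8, 890.8 and 104.6 in clones 12, 18 and 4, against 1843 and 1441 in the parental libraries. It did not pass (log2 -2.44, SE 0.93, adjusted p = 0.161, limma) but was called lower without clone 18 (0.0337). Lxn and Slpi, like Ndst1, Ctsc, Rab27a and Lyst, were named after their values were seen.

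In the list for transport and fusion of granules, 4 of 14 tested genes were higher, 1 was lower and 9 did not pass (median log2 fold change 0.24). Over all tested genes, 7.51% were higher and 8.49% lower. Rab27b, a small GTPase of secretory granules, was at 68.94, 60.24 and 205.2 in clones 12, 18 and 4, and at 0 and 1.221 in the parental libraries (log2 6.01, SE 0.644, adjusted p = 0.00142, limma). Rab27b reached the mean set for testing only through the clones, so it could not have been called lower. Its paralog Rab27a did not pass (adjusted p = 0.954, limma). The syntaxin gene Stx3 was 2.747-fold higher (adjusted p = 0.00255, limma). Vamp8 and Unc13d were 1.53-fold and 1.468-fold higher (adjusted p = 0.0238 and 0.0255, limma), calls lost without parental replicate 2 (0.129 and 0.0775) and with no filter (0.0675 and 0.0712). Vamp8 was also lost without clone 12 (0.0719), and Unc13d without clone 18 (0.0526) or parental replicate 1 (0.099). Lyst, a regulator of granule size, was the gene that was lower (log2 -0.67, adjusted p = 0.0492, limma), and its call was lost with any single library left out (adjusted p = 0.068 to 0.235), with library totals as the scaling (0.053) and with no filter (0.0834).

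Markers of the cell types that carry these proteases were read beside them. Of 8 tested mast cell markers, 4 were higher in the clones (Ms4a2, Il1rl1, Gata2 and Slc18a2) and none was lower. Il1rl1, at 0 and 1.832 in the parental libraries, reached the mean of 10 only through the clones and could not have been called lower. Over all tested genes, 7.51% were higher and 8.49% lower. Kit, Hdc, Fcer1g and Mitf did not pass (adjusted p = 0.183, 0.139, 0.221 and 0.146, limma). Hdc passed without clone 18 (0.0339). Fcer1g was at 1051 to 1284 in the clones, against 1098.5 and 579.2 in parental replicates 1 and 2. The summed level of the 10 listed genes was 18070 to 22800 in the clones and 9634 to 10750 in the parental cells. Ms4a2, a chain of the IgE receptor, was at 241.3, 584.9 and 324.1 in clones 12, 18 and 4, against 17.09 and 31.30 in the parental libraries. Fcer1a, the chain of that receptor that binds IgE, was at 2.462, 11.10 and 0 in clones 12, 18 and 4 while neither parental library had a read, and Mrgprb2, a receptor of mature connective tissue mast cells, had no read. Of 7 tested basophil markers, a list that includes Prss34 and shares Fcer1a and Ms4a2 with the mast cell list, 6 were higher. These were Prss34, Ms4a2, Cd200r3, Il3ra, Csf2rb and Cyp11a1, beside 7.51% of all tested genes. Cyp11a1, with no parental read, reached the mean of 10 only through the clones and could not have been called lower. Cebpa did not pass (adjusted p = 0.144, limma), at 1626 to 1766 in the clones, against 1286.5 and 477.4 in parental replicates 1 and 2. The summed level of the 9 listed basophil genes was 8893 to 10610 in the clones and 2310 to 3034 in the parental cells. Cd200r3, a basophil and mast cell receptor, was at 1508, 840.1 and 2107 in clones 12, 18 and 4, against 37.29 and 52.98 in the parental libraries (adjusted p = 0.00118, limma), while the integrin gene Itga2 had no read.

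Cytotoxic lymphocytes are the other main source of granzyme B, and 12 of their markers were listed. Of these, Gzma, Ncr1, Tbx21, Cd3e and Ifng had no read in any library. Prf1, perforin, was at 0 except for 0.1527 in parental replicate 2. Nkg7, a cytotoxic granule membrane protein, was read in all 5 libraries, at 168.7, 134.7 and 65.65 in clones 12, 18 and 4, against 129.0 and 129.9 in the parental libraries. It was the single tested gene and did not pass (adjusted p = 0.788, limma). The list's summed level was 67.7 to 169.9 in the clones and 129 to 131.4 in the parental cells.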

How the data were processed

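The authors deposited, for each mouse library, a signal per Ensembl gene that is a read count divided by a size factor. This reading comes from the values and from the submitters' processing notes, which list DESeq2, RSEM and STAR 2.6.1 beside the genome builds mm9 and hg19, with no role for any. Strand use and annotation: not given in the sources used here. Groups came from sample titles. Dividing by the smallest value showed that 100% of those above 0 were whole multiples of it within each library (tolerance 0.01), which recovered whole reads.

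All 5 libraries were fitted with limma 3.58.1 (trend, robust; R 4.3.3) on log2(value + 1) for 13132 genes with a mean of at least 10, adjusted by Benjamini-Hochberg at 0.05. A fold change on this scale understates the change of genes with few reads. With edgeR 4.0.16 on whole reads 2206 genes were called, with DESeq2 1.42.0 2681, with limma 2101. On simulated data with 200 changed genes, limma recovered 76% of 2-fold and 96% of 4-fold changes over 13114 genes. The simulation gave every gene and library the same coefficient of variation beyond counting error, 0.15. Whether the real libraries vary this little was not tested, so these shares need not hold for them. Replicates were not duplicates of a library (chi-square of their counts per degree of freedom 6.23 to 11.4 between clones, 29.6 between parental libraries), and each counted as 1.

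Members and lists were chosen with earlier results of these data known. Named were the members, the companion genes of smallest p in each list (up to 4), all read paralogs, cell type markers, and the 3 genes of nearest profile. Cpq, Azu1, Stxbp3 and Vamp7 matched no symbol. Promoter and protein sequences were not used here. A planned gene of the processing and storage list is not reported here and was left out of that list.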

Additional observations from a re-analysis of the deposited data

How the results depend on the processing

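Alternatives were pseudocounts of 0.5 and 5, no filter or a mean of at least 50, library totals as scaling, DESeq2, edgeR, and each library left out. Counts were as follows where they moved by more than 1.5 times. Tryptase paralogs called higher numbered 1 in place of 2 with a pseudocount of 5 and with edgeR. Without a filter, 0 other granule serine proteases were lower (2 before), 2 protease inhibitors higher (4 before), and 2 granule release genes higher (4 before) and 0 lower (1 before). The last was also 0 with library totals. With DESeq2, 9 processing and storage genes were higher (5 before). With single libraries left out, all genes called ranged from 990 (without parental replicate 2) to 2115, with 1023 without clone 12, those higher from 468 to 1230 and those lower from 400 to 1126. Without parental replicate 1 the share of calls that were higher was 68.1%, without parental replicate 2 59.6%, and with all libraries 46.9%. The ranges were 0 to 1 (chymase and granzyme paralogs higher), 1 to 2 (tryptase paralogs higher), 0 to 2 (other granule serine proteases lower), 2 to 3 (inhibitors higher), 0 to 1 (inhibitors lower), 2 to 4 (release higher) and 0 to 0 (release lower). For these changes the cause was not tested, beyond fewer samples or more genes tested.

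Of 62 recomputed differences of the 7 proteases, 53 moved by less than the spread between libraries, 8 by more, and 1 turned sign: Tpsab1 went from 0.48 to -0.47 (log2) without clone 4, which held its only clone reads, and reached 0.95 without clone 12. The fitted value of Tpsb2 depends on the pseudocount, since it has no parental read (8.50 at 0.5, 5.22 at 5). A lone parental library is assumed to vary like the clones. No paired analysis was possible because the clones and the parental libraries share no replicate number. Depth limits Tpsab1, Cma1, Mcpt4 and Gzmb, for which 3 reads are worth 3.693 to 6.154 in a clone.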

Other observations

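Of 3 tested eosinophil markers 2 were higher in the clones (Prg3 and Il5ra), beside 7.51% of all tested genes. Il5ra was at 1.554 and 3.969 in parental replicates 1 and 2. Prg3 and Il5ra reached the mean set for testing only through the clones, so neither could have been called lower. Siglec5 did not pass (adjusted p = 0.263, limma), and the granule genes Epx and Prg2 were at or near 0. Epx, eosinophil peroxidase, and Prg2, the major basic protein, stayed at or below 1.585 in every library. Prg3, a homolog of the major basic protein, was at 25.85, 25.36 and 26.67 in clones 12, 18 and 4, against 1.554 and 1.374 in the parental libraries (log2 3.45, SE 0.511, adjusted p = 0.005, limma), with the clones above both parental libraries and close to each other. Of 5 tested neutrophil progenitor markers 2 were lower, beside 8.49% of all tested genes, and 3 did not pass. Beside the lower Elane and Prtn3, Mpo was at 13845, 20009 and 7872 in the clones, against 42873 and 38610 in the parental libraries, which did not pass (adjusted p = 0.0629, limma) but passed with DESeq2 (0.00774) and without clone 18 (0.0292) or clone 4 (0.034). The other 2 tested markers were Cebpe (log2 -0.48, adjusted p = 0.7, limma) and Ctsg, which had the opposite sign (log2 1.27, adjusted p = 0.382, limma, and 0.000942 without parental replicate 1). The secondary granule genes Ltf, Camp and Ngp were at or below 4.661 throughout.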
